A study of Mus musculus with 8 samples.

Results

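The proteasome genes were followed in Gr1+ cells of the mouse spleen after endotoxin, with and without a bile salt given afterwards. All genes on the array whose symbol begins with Psma, Psmb, Psmc, Psmd, Psme, Psmf or Psmg were taken, which gave 45 of the 16593 genes that carry a symbol there. They comprised 7 alpha and 7 constitutive beta subunits of the 20S core, 3 immunoproteasome subunits, 6 ATPases and 10 non-ATPase subunits of the 19S regulator, 3 assembly chaperones of the 19S regulator, 4 activators, 3 assembly chaperones of the 20S core, and Psmc3ip and Psme3ip1, which are named after a subunit and are no part of the proteasome. Psma8, Psmb11, Psmd3, Psmf1 and Psmg4 were not analysed here.

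The proteasome is the protease of the cytosol and nucleus that degrades proteins tagged with ubiquitin. Its 20S core is a barrel of alpha rings outside and beta rings inside, and the catalytic sites lie on beta subunits. The 19S regulator recognises, unfolds and feeds in the tagged protein. In cells exposed to interferon-gamma, and at high basal level in many immune cells, the catalytic subunits Psmb5, Psmb6 and Psmb7 are replaced in new particles by Psmb8, Psmb9 and Psmb10. The resulting immunoproteasome supplies peptides for MHC class I, and Psme1 with Psme2 form its interferon-inducible cap.

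The study used Illumina MouseRef-8 v2 bead arrays on RNA from Gr1+ cells, which were enriched on magnetic columns from pooled spleens of female C57BL/6 mice aged 6 to 8 weeks. The LT mice (3 arrays) received lipopolysaccharide (LPS, a component of bacterial outer membranes that models sepsis) in the peritoneum and 30 min later HY209 (sodium taurodeoxycholate, a bile salt) in a vein. The LPS mice (3 arrays) received LPS and then PBS, and the PBS mice (2 arrays, numbered 1 and 3) received PBS at both times. All spleens were taken 48 h after the injection into the peritoneum. The series therefore holds no group with HY209 alone, and an effect of HY209 is measured only on top of LPS. The labels give pools of 10 to 15 spleens in one place and of 30 to 40 in another, and they call the arrays biological replicates. The p-values measure only the spread between these arrays.

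Gr1 is an antigen shared by neutrophils and a class of monocytes, and the labels state that more than 95% of the sorted cells were CD11b+, a myeloid integrin. Of 9 neutrophil markers measured, all were above background on the LT and LPS arrays, and all but Mmp8 on the PBS arrays. Their summed intensity was 268784 to 279028 on the LT arrays, 279585 to 289314 on the LPS arrays and 257318 to 269635 on the PBS arrays. Markers of other cells were present as well and were highest on the PBS arrays. The macrophage markers summed to 28819 to 29941 on the LT arrays, 37698 to 40005 on the LPS arrays and 179311 to 183377 on the PBS arrays. The B cell markers summed to 12720.5 to 14525 on the LT arrays, 8014 to 8838 on the LPS arrays and 37971 to 39787 on the PBS arrays. The macrophage markers were thus lowest on the LT arrays, and the B cell markers lowest on the LPS arrays. The T and NK cell, erythroid and dendritic cell markers were lowest on the LPS arrays or level between the LPS and LT arrays, and highest on the PBS arrays.

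Intensities below are the deposited values on a linear scale. Log2 changes and folds come from background-corrected values, and dividing the printed intensities does not give these folds. Values after ± are standard errors of the limma fit for log2 changes, and p-values are adjusted over all 10255 genes tested. A change is called where that p is under 0.05. Of the 45 proteasome genes, 42 had a probe above the background threshold of 169 on at least 2 arrays and were tested, and 41 of these were above it on all 8 arrays. Psmd6 passed through 1 LT array and 1 PBS array. Psma1, Psma6 and Psmc6 stayed below the threshold on every array, so they have only an upper bound. The number of arrays limits the precision of every value. Within groups, the median coefficient of variation of a proteasome gene was 6.37% over the LT arrays, 4.12% over the LPS arrays and 5.11% over the PBS arrays.

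After LPS, most proteasome genes were higher than in PBS mice. Of the 42 tested, 26 rose and 3 fell in the LPS group against PBS, while 25.6% of all genes tested rose and 30.0% fell (55.7% in either direction). The median log2 change was 0.30 for the proteasome genes and -0.0038 for all genes. With HY209 given after LPS, 30 rose and 1 fell in the LT group against PBS, while 21.5% of all genes tested rose and 26.0% fell (47.5% in either direction). The median there was 0.36 for the proteasome genes, against -0.0047 for all genes. These comparisons share the PBS arrays. Between LT and LPS, 3 of the 42 rose and 0 fell, while 6.12% of all genes tested rose and 3.45% fell (9.58% in either direction), and 8 of the 42 had an unadjusted p under 0.05. The share of proteasome genes called there, 7.14%, is near that of all genes. The counts here include Psmc3ip and Psme3ip1, which are no part of the proteasome. Both were called higher in each comparison with PBS, and Psmc3ip is 1 of the 3 called between LT and LPS. The arrays of the groups did not overlap for 36 of the 42 in LPS against PBS (32 higher and 4 lower), where this held for 71.1% of all genes tested (33.7% higher and 37.3% lower). In LT against PBS they did not overlap for 37 (35 higher and 2 lower), against 64.6% of all genes (30.8% higher and 33.8% lower). Between LT and LPS they did not overlap for 12 (9 higher and 3 lower), against 29.2% of all genes (14.5% higher and 14.7% lower). In bulk RNA, fewer cells of a type and less RNA per cell cannot be told apart, and this holds for every change given here.

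**Figure D1:**
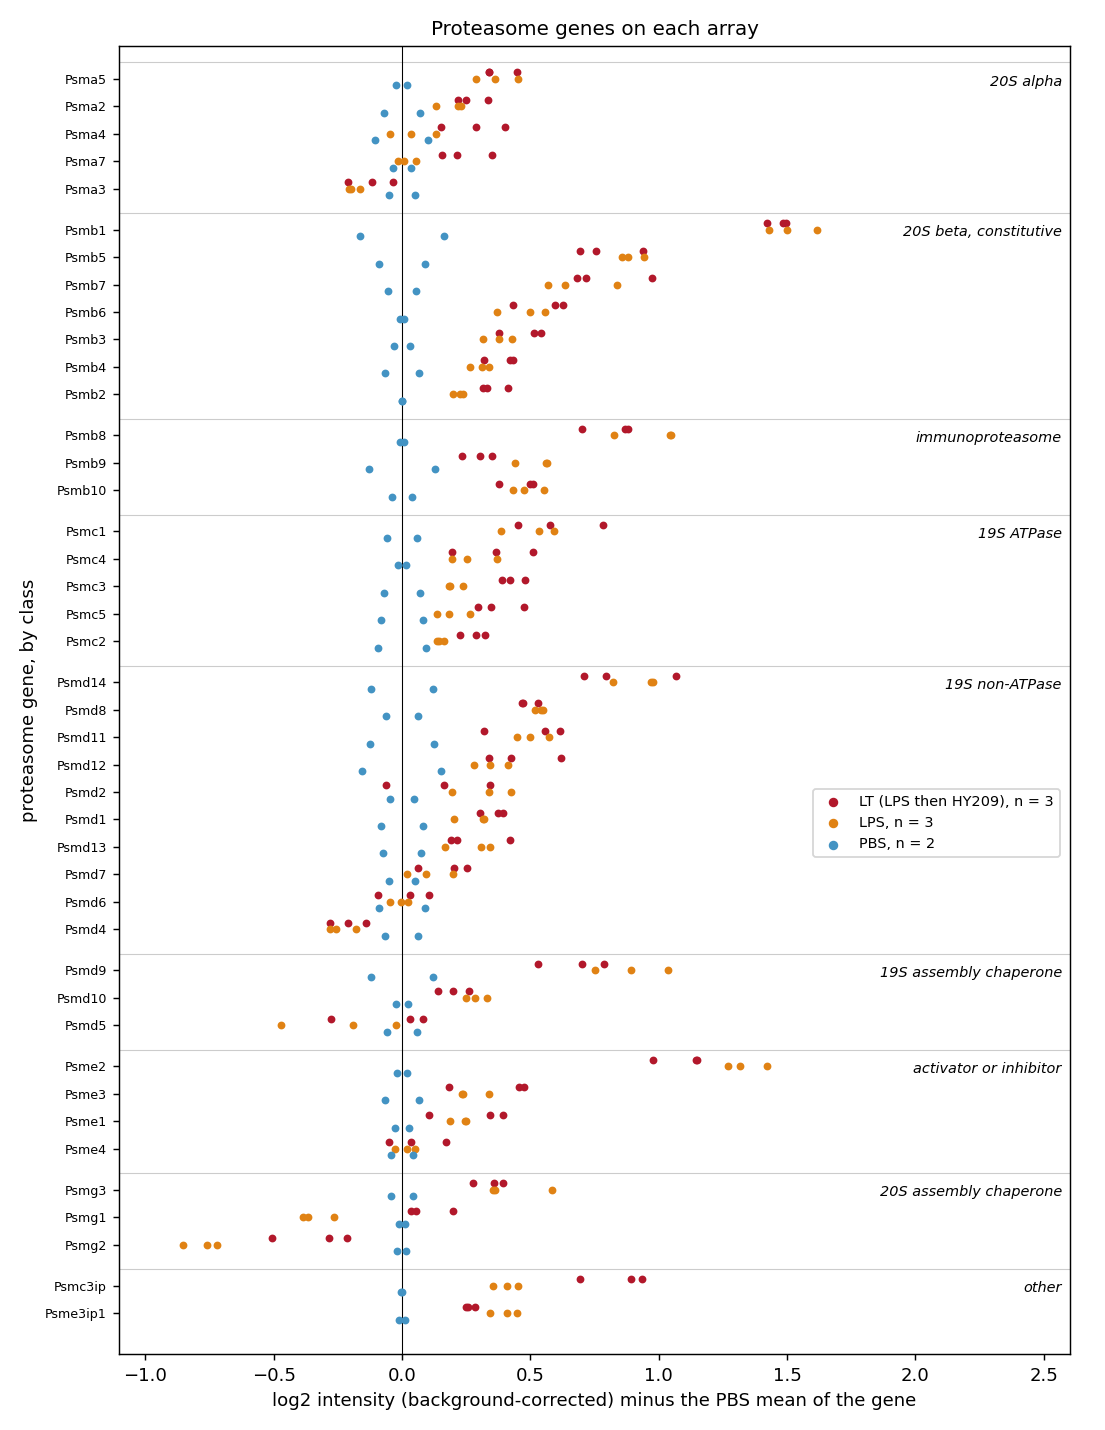
Log2 intensity of each tested proteasome gene on each array, after background correction and minus the mean of the PBS arrays for that gene (horizontal axis), with genes grouped by class down the page; each point is 1 array (LT red, LPS orange, PBS blue). Most LT and LPS points lie right of the PBS points, with Psmb1 farthest at 1.47 (LT) and 1.51 (LPS) on average, while Psmg2 is the gene whose LPS points lie farthest to the left.

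The catalytic subunits of the immunoproteasome rose after LPS, and none of them passed the test between LT and LPS. Psmb8, which carries the chymotrypsin-like site of the immunoproteasome, had intensities of 1167, 1303 and 1313 on the LT arrays, 1267, 1462 and 1467 on the LPS arrays, and 748 and 742 on the PBS arrays. All LT and LPS arrays lay above both PBS arrays, and the LT and LPS arrays overlapped. Its log2 change was 0.97 ± 0.10 (1.96-fold higher, adjusted p = 6.2e-06) in LPS against PBS and 0.82 ± 0.10 (1.76-fold higher, adjusted p = 3.6e-05) in LT against PBS. Between LT and LPS it was -0.16 ± 0.09 (adjusted p = 0.32).

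Psmb9, whose site cuts after hydrophobic residues in place of the acidic ones preferred by Psmb6, had intensities of 9957, 10436 and 10786 on the LT arrays, 11484, 12500.4 and 12469 on the LPS arrays, and 9262 and 7755 on the PBS arrays. The LPS arrays were all above the LT arrays, and the LT arrays all above the PBS arrays, though the gap between LT replicate 1 and PBS replicate 1 was small. The change was 0.52 ± 0.10 (1.44-fold higher, adjusted p = 8.6e-04) in LPS against PBS and 0.30 ± 0.10 (1.23-fold higher, adjusted p = 0.031) in LT against PBS. Without PBS replicate 3, LT replicate 2 or LT replicate 3, the call in LT against PBS was lost, with adjusted p up to 0.33, and it was lost with the replicate number as a block (adjusted p = 0.056). Between LT and LPS the change was -0.23 ± 0.09 (adjusted p = 0.14), which missed the threshold although the arrays did not overlap, as was the case for 29.2% of all genes tested. Psmb10, which carries the trypsin-like site, had intensities of 12171, 13325 and 13222 on the LT arrays, 13748, 13036 and 12651 on the LPS arrays, and 9629 and 9145 on the PBS arrays. Its LT and LPS arrays overlapped and stood above both PBS arrays. It changed by 0.49 ± 0.09 (1.40-fold higher, adjusted p = 6.2e-04) in LPS against PBS and by 0.46 ± 0.09 (1.38-fold higher, adjusted p = 0.0012) in LT against PBS, and by -0.03 ± 0.08 (adjusted p = 0.88) between LT and LPS.

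The constitutive counterparts rose as well. Psmb5, the chymotrypsin-like subunit that Psmb8 replaces, had intensities of 1699, 1631 and 1921 on the LT arrays, 1923, 1818 and 1845 on the LPS arrays, and 1095 and 977 on the PBS arrays. Psmb6, the caspase-like subunit that Psmb9 replaces, had 4913, 4303 and 4812 on the LT arrays, 4501, 4124 and 4674 on the LPS arrays, and 3217 and 3188 on the PBS arrays. Psmb7, the trypsin-like subunit that Psmb10 replaces, had 2539.7, 2601 and 3094 on the LT arrays, 2351, 2461 and 2822 on the LPS arrays, and 1550.2 and 1669 on the PBS arrays. For each of these genes all LT and LPS arrays exceeded both PBS arrays, and the LT and LPS arrays overlapped. In LPS against PBS the log2 change was 0.89 ± 0.10 (adjusted p = 1.3e-05) for Psmb5, 0.48 ± 0.10 (adjusted p = 0.0013) for Psmb6 and 0.68 ± 0.12 (adjusted p = 3.4e-04) for Psmb7. In LT against PBS it was 0.80 ± 0.10 (adjusted p = 4.4e-05) for Psmb5, 0.55 ± 0.10 (adjusted p = 5.5e-04) for Psmb6 and 0.79 ± 0.12 (adjusted p = 1.4e-04) for Psmb7.

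Whether the immunoproteasome subunits moved more than the subunits they replace was asked of each pair, as the log2 value of the immunoproteasome subunit minus that of its counterpart on the same array. Only the change of this difference between groups is meaningful, since the signals of different probes cannot be set against each other. In LPS against PBS the difference changed by 0.08 for Psmb8 minus Psmb5 (95% interval -0.26 to 0.42), by 0.05 for Psmb9 minus Psmb6 (-0.28 to 0.38) and by -0.19 for Psmb10 minus Psmb7 (-0.57 to 0.19). It changed in LT against PBS by 0.02 for Psmb8 minus Psmb5 (-0.32 to 0.36), by -0.26 for Psmb9 minus Psmb6 (-0.59 to 0.07) and by -0.33 for Psmb10 minus Psmb7 (-0.71 to 0.05). Between LT and LPS it changed by -0.06 for Psmb8 minus Psmb5 (-0.37 to 0.25), by -0.30 for Psmb9 minus Psmb6 (-0.60 to -0.0093) and by -0.14 for Psmb10 minus Psmb7 (-0.48 to 0.20). The intervals use a spread pooled over the groups and are not adjusted for the 9 comparisons. The arrays did not overlap in 3 of the 9 comparisons: for Psmb9 minus Psmb6 all LT arrays lay below all LPS arrays and below both PBS arrays, and for Psmb10 minus Psmb7 they lay below both PBS arrays. Of all single genes tested, 29.2% did not overlap in LT against LPS, 71.1% in LPS against PBS and 64.6% in LT against PBS. Such a share was not computed for differences of 2 genes. In two-sided exact permutation tests over the arrays, adjusted over the 9 comparisons, the lowest adjusted p was 0.45. With 3 arrays against 3, or 3 against 2, the smallest exact p that can be reached is 0.1, so these tests cannot pass the threshold.

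**Figure D2:**
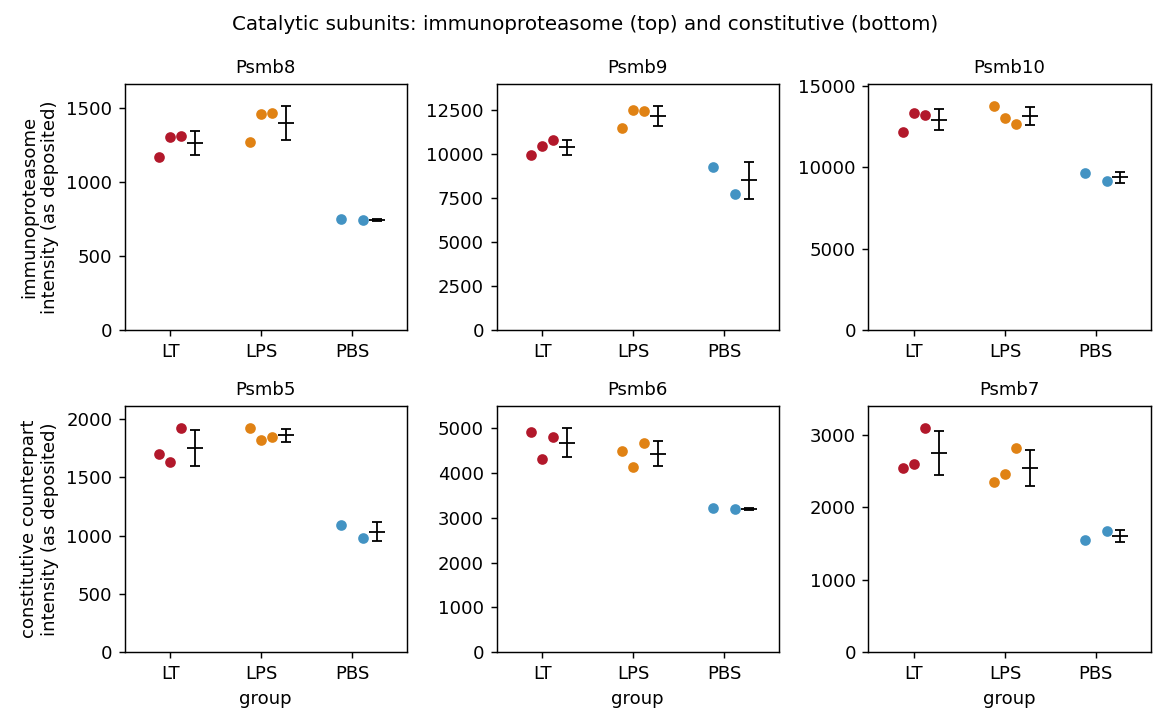
Deposited intensity (vertical axes, linear, starting at 0) of the 3 immunoproteasome subunits and the 3 constitutive subunits that they replace, by group, with LT left, LPS in the middle and PBS right; points are arrays, and bars with whiskers are the group mean and SD. In every panel both LPS-treated groups lie above PBS, and for Psmb9 the LT arrays (9957 to 10786) lie below the LPS arrays (11484 to 12500).

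Psmb8 and Psmb9 lie close together on chromosome 17, in the order Psmb9, Tap1, Psmb8, Tap2 along the RefSeq annotation of GRCm38.p6. The sequences before their starts are shown as the windows in which motifs of interferon and stress signalling were searched, together with that of Psmb5, the counterpart of Psmb8. For Psmb9 the window searched was 250 bases, and only the part before Tap1 is printed. They are the bases directly upstream of the annotated start on the strand of the gene, for Psmb8 chr17:34197945-34198194 (plus strand), for Psmb9 chr17:34187331-34187555 (minus strand, ended where Tap1 begins on the other strand) and for Psmb5 chr14:54617996-54618245 (minus strand). Capitals mark a match to a motif searched on both strands, which is a gamma-activated site (TTCNNNGAA) for Psmb8, a CCAAT box (CCAAT, here read from the other strand) for Psmb9 and the core of an antioxidant response element (TGACNNNGC) for Psmb5.
Psmb8: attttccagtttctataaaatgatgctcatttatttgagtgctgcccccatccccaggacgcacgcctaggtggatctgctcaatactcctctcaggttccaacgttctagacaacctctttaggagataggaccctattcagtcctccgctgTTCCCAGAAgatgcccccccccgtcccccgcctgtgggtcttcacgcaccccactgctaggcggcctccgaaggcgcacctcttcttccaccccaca
Psmb9: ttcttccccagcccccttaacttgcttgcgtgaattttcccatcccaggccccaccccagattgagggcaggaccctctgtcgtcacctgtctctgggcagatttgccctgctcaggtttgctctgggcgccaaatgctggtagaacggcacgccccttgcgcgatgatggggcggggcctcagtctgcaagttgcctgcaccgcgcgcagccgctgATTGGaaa
Psmb5: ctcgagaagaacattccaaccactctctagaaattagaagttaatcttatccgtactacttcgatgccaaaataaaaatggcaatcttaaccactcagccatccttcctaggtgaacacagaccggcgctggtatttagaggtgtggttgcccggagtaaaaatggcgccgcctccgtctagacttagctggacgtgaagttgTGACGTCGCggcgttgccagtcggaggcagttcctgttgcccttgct

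Upstream windows of 250 bases were found for 39 of the 45 proteasome genes, and Psmb1, Psmb2, Psmb7, Psmc3, Psmd7 and Psmg2 had none. A gamma-activated site was in 2 of the 39, 97 bases before the start of Psmb8 and 243 bases before that of Psmg1, and in a window of 8.13% of the 27025 genes with one. The core of the interferon-stimulated response element (GAAA repeated after a gap of 2 bases) was in 3 of the 39 (Psmb3, Psmd4 and Psmd9) and in 3.46% of all genes. The antioxidant response element core, the motif of the proteasome regulators Nfe2l1 and Nfe2l2, was in 5 of the 39 (Psmb5, Psmb6, Psmc6, Psmd9 and Psmd12) and in 11.5% of all genes. An NF-kB site was in 6 of the 39 and in 8.23% of all genes, and a CCAAT box in 15 of the 39 and in 37.5% of all genes. A match shows the letters only.

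The remaining constitutive beta subunits, which build the inner rings without a catalytic site, contained the largest change of any proteasome gene. Psmb1 had intensities of 5757, 6043 and 5998 on the LT arrays, 6572, 6069 and 5774 on the LPS arrays, and 1962 and 2444 on the PBS arrays. All LT and LPS arrays were far above both PBS arrays, and the LT and LPS arrays overlapped. Psmb1 rose by 1.51 ± 0.11 (2.86-fold higher, adjusted p = 2.5e-07) in LPS against PBS and by 1.47 ± 0.11 (2.76-fold higher, adjusted p = 4.4e-07) in LT against PBS. Psmb2, Psmb3 and Psmb4 also rose in both comparisons, by 0.22 ± 0.08, 0.37 ± 0.09 and 0.31 ± 0.09 in LPS against PBS and by 0.35 ± 0.08, 0.48 ± 0.09 and 0.39 ± 0.09 in LT against PBS. Thus all 7 constitutive beta subunits and all 3 immunoproteasome subunits passed the test upward in LPS against PBS, where 25.6% of all genes did. The call of Psmb2 in LPS against PBS was lost when any PBS array or any LPS array was left out, and when LT replicate 3 was. The call of Psmb4 was lost in both comparisons without PBS replicate 3.

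The alpha subunits, which form the outer rings and the gate of the core, had smaller log2 changes. Of the 5 tested, Psma5 alone was called in LPS against PBS, and Psma5 and Psma2 in LT against PBS. Of all genes, 25.6% and 21.5% were called higher in these comparisons, so the count in LPS against PBS is near that of all genes. Psma5 had intensities of 20300.0, 21900.0 and 20300.0 on the LT arrays, 21949.5, 20621 and 19572 on the LPS arrays, and 15819 and 16294 on the PBS arrays. Its LT and LPS arrays overlapped and exceeded both PBS arrays, with a change of 0.37 ± 0.09 (adjusted p = 0.0046) in LPS against PBS and of 0.38 ± 0.09 (adjusted p = 0.0047) in LT against PBS. Psma2 changed by 0.27 ± 0.09 (adjusted p = 0.030) in LT against PBS, and that call was lost without LT replicate 1 or PBS replicate 1. Over the class, the log2 changes in LPS against PBS ran from -0.19 to 0.37, against 0.22 to 1.51 for the constitutive beta subunits. The mean of the alpha subunits on an array, relative to the PBS mean, was 0.15 to 0.25 on the LT arrays and 0.05 to 0.12 on the LPS arrays. That of the constitutive beta subunits was 0.64 to 0.74 on the LT arrays and 0.60 to 0.66 on the LPS arrays. The difference between the classes was not tested.

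**Figure D3:**
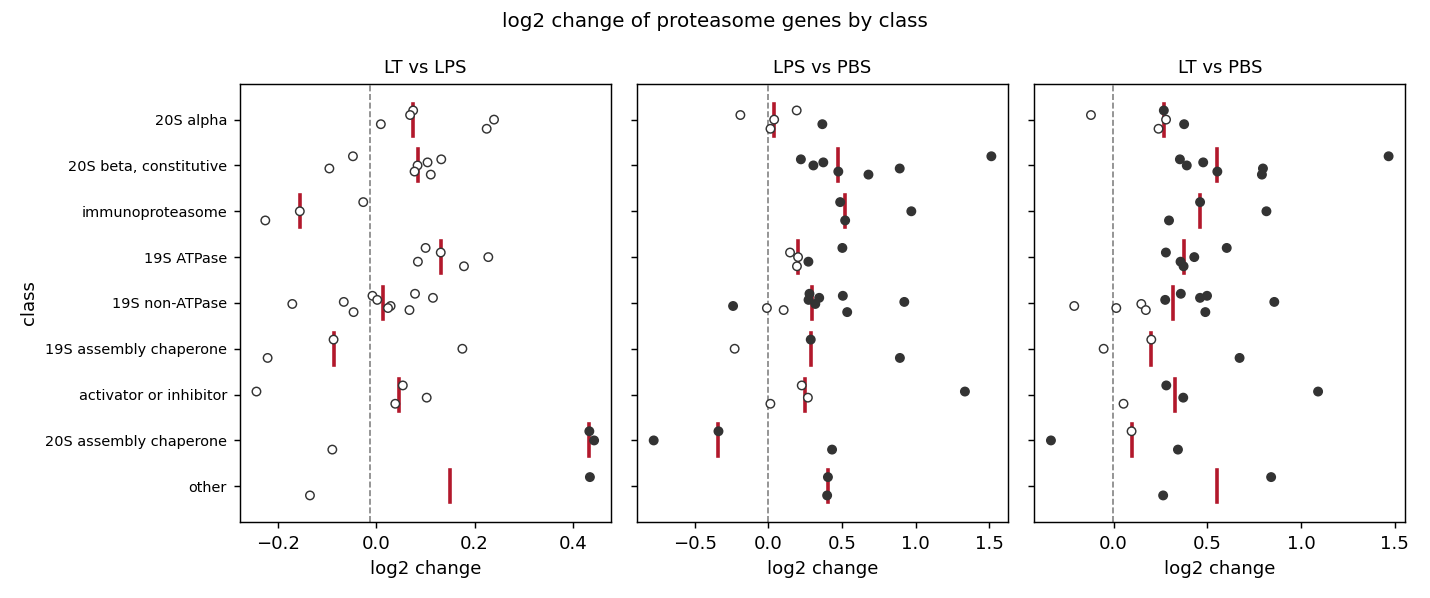
Log2 change of each tested proteasome gene (points) by class, for LT against LPS, LPS against PBS and LT against PBS, with the class median as a bar and the median of all genes tested as a dashed line; filled points passed the test over all genes. The medians of the constitutive beta and immunoproteasome classes are 0.48 and 0.52 in LPS against PBS, those of the alpha and 20S chaperone classes 0.04 and -0.34.

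The 19S regulator rose in part. Among the ATPases, which form the ring that unfolds the substrate, 2 of 5 were called higher in LPS against PBS (Psmc1 and Psmc4), against 25.6% of all genes, and 5 of 5 in LT against PBS, against 21.5% of all genes, and none was called between LT and LPS. Psmc1 had intensities of 1681, 2100.2 and 1829 on the LT arrays, 1612, 1846 and 1776 on the LPS arrays, and 1203 and 1296 on the PBS arrays, with every LT and LPS array above both PBS arrays. Its change was 0.50 ± 0.11 (adjusted p = 0.0024) in LPS against PBS and 0.60 ± 0.11 (adjusted p = 8.4e-04) in LT against PBS. Psmc3 had 3799, 3954 and 3718 on the LT arrays, 3238, 3349 and 3236 on the LPS arrays, and 2723 and 2991 on the PBS arrays. Here the groups did not overlap, with LT highest and PBS lowest, and the change was 0.43 ± 0.09 (adjusted p = 0.0016) in LT against PBS, 0.20 ± 0.09 (adjusted p = 0.072) in LPS against PBS and 0.23 ± 0.08 (adjusted p = 0.097) between LT and LPS. Psmc2, Psmc4 and Psmc5 changed in LT against PBS by 0.28 ± 0.09, 0.36 ± 0.11 and 0.37 ± 0.10, and each of these calls was lost without PBS replicate 1. That of Psmc2 was also lost without LT replicate 2 or LT replicate 3, and that of Psmc4 without LT replicate 3 or PBS replicate 3. Psmc4 changed by 0.27 ± 0.11 (adjusted p = 0.048) in LPS against PBS, a call that was also lost without PBS replicate 1 or 3, LPS replicate 1 or 3, or LT replicate 1.

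Of the 10 non-ATPase subunits, 7 rose and 1 fell in LPS against PBS, where 25.6% of all genes rose and 30.0% fell. In LT against PBS 6 rose and 0 fell, where 21.5% of all genes rose and 26.0% fell. Psmd14, the metalloprotease of the lid that removes the ubiquitin chain, had intensities of 1475, 1167 and 1235 on the LT arrays, 1393, 1385 and 1256 on the LPS arrays, and 686 and 799 on the PBS arrays. Its LT and LPS arrays overlapped and all exceeded the PBS arrays, with a change of 0.92 ± 0.12 (1.90-fold higher, adjusted p = 4.3e-05) in LPS against PBS and 0.86 ± 0.12 (1.81-fold higher, adjusted p = 1.0e-04) in LT against PBS. Psmd8, another lid subunit, had 5456, 5444 and 5679 on the LT arrays, 5729, 5757 and 5629 on the LPS arrays, and 4130.5 and 3787 on the PBS arrays, likewise with both LPS-treated groups above PBS. It changed by 0.54 ± 0.09 (adjusted p = 2.2e-04) in LPS against PBS and 0.49 ± 0.09 (adjusted p = 5.6e-04) in LT against PBS. The lid subunit Psmd11 changed by 0.51 ± 0.11 (adjusted p = 0.0024) in LPS against PBS and 0.50 ± 0.11 (adjusted p = 0.0033) in LT against PBS, the second of which was lost without PBS replicate 1.

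Psmd4, the ubiquitin receptor, moved the other way, with intensities of 15659.5, 14928 and 14239.9 on the LT arrays, 15237, 14451 and 14239.9 on the LPS arrays, and 16509 and 18040.0 on the PBS arrays. All LT and LPS arrays lay below both PBS arrays. The change was -0.24 ± 0.09 (adjusted p = 0.043) in LPS against PBS, and without any 1 of the LPS or PBS arrays this call was lost, with adjusted p up to 0.27. It was also lost with the replicate number as a block, at an adjusted p of 0.066. In LT against PBS it was -0.21 ± 0.09 (adjusted p = 0.080). The other calls in LPS against PBS, for Psmd1 and Psmd2, the large scaffold subunits of the base, and for the lid subunits Psmd12 and Psmd13, ran from 0.27 ± 0.11 to 0.35 ± 0.12. All of them were lost without PBS replicate 1 or LPS replicate 1, and that of Psmd12 also with the replicate number as a block, at an adjusted p of 0.0502. Those of Psmd2 and Psmd13 were also lost without PBS replicate 3 or LPS replicate 3, and that of Psmd1 without LPS replicate 3. Psmd2 lay near the background threshold of 169, at 175 to 218 on the LT and LPS arrays and 183 and 176 on the PBS arrays. A further probe of Psmd2 gave 0.19 ± 0.16 in LPS against PBS (adjusted p = 0.36 in the limma fit over probes). In LT against PBS, Psmd1, Psmd12 and Psmd13 were called at 0.36 ± 0.09, 0.46 ± 0.12 and 0.28 ± 0.11, and again these calls were lost without PBS replicate 1. That of Psmd13 was also lost without PBS replicate 3, LT replicate 3, LPS replicate 1 or LPS replicate 3.

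Of the 3 chaperones that assemble the base of the 19S regulator, 2 rose in LPS against PBS, where 25.6% of all genes did, and 1 in LT against PBS, where 21.5% of all genes did. Psmd9 had intensities of 228, 259.7 and 249 on the LT arrays, 275, 296 and 255 on the LPS arrays, and 189 and 170.1 on the PBS arrays, all LT and LPS arrays being above both PBS arrays. It changed by 0.89 ± 0.12 (adjusted p = 4.5e-05) in LPS against PBS and 0.67 ± 0.12 (adjusted p = 5.5e-04) in LT against PBS. PBS replicate 3 lay just above the background threshold of 169, and under the settings that keep all arrays the change in LPS against PBS ran down to 0.57. A further probe of Psmd9 gave 0.24 ± 0.12 in LPS against PBS (adjusted p = 0.12 in the limma fit over probes). In LT against PBS that probe gave 0.24 ± 0.12 (adjusted p = 0.13 in the same fit). Psmd10, an oncoprotein known as gankyrin, had 4383, 4761 and 4562 on the LT arrays, 4834, 4725 and 4986 on the LPS arrays, and 4044 and 3918 on the PBS arrays and changed by 0.29 ± 0.09 (adjusted p = 0.014) in LPS against PBS, which was lost without either PBS array. Psmd5 had 220.0, 225 and 191 on the LT arrays, 175, 214 and 198 on the LPS arrays, and 211 and 223 on the PBS arrays, with overlapping groups, and a change of -0.23 ± 0.14 (adjusted p = 0.19) in LPS against PBS.

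Of the activators, 1 of 4 was called higher in LPS against PBS, which is near the 25.6% of all genes, and 3 of 4 in LT against PBS, where 21.5% of all genes were. Psme2, a subunit of the interferon-inducible cap, had intensities of 363, 399 and 400.3 on the LT arrays, 469, 441 and 429 on the LPS arrays, and 219.8 and 215 on the PBS arrays. The 3 groups did not overlap, with LPS highest and PBS lowest. It rose by 1.34 ± 0.10 (2.52-fold higher, adjusted p = 2.1e-07) in LPS against PBS and by 1.09 ± 0.10 (2.13-fold higher, adjusted p = 1.6e-06) in LT against PBS, and its change between LT and LPS was -0.24 ± 0.09 (adjusted p = 0.097). Under the settings that keep all arrays, the log2 rise of Psme2 ran down to 1.04 in LPS against PBS and to 0.83 in LT against PBS. Its partner Psme1 had 19532, 23876 and 23033 on the LT arrays, 21576, 20686 and 21527 on the LPS arrays, and 18515 and 17828 on the PBS arrays, with the LT array of replicate 1 nearest to PBS. Psme1 changed by 0.23 ± 0.10 (adjusted p = 0.079) in LPS against PBS and 0.28 ± 0.10 (adjusted p = 0.040) in LT against PBS. The call in LT against PBS was lost without any 1 of 6 arrays, which are all but LT replicate 1 and LPS replicate 2, and with the replicate number as a block (adjusted p = 0.068). A further, dimmer probe of Psme1 gave 0.51 ± 0.12 in LPS against PBS (adjusted p = 0.0033 in the limma fit over probes), and with the mean over its probes Psme1 changed by 0.37 in LPS against PBS (adjusted p = 0.0097) and by 0.44 in LT against PBS. Psme1 passed the test in LPS against PBS under 7 of the alternative settings.

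Psme3, the activator of nuclear proteasomes, had 2469, 2052 and 2501 on the LT arrays, 2129, 2278 and 2124 on the LPS arrays, and 1901 and 1737 on the PBS arrays. Every LT and LPS array was above both PBS arrays, with a change of 0.27 ± 0.11 (adjusted p = 0.053) in LPS against PBS and 0.37 ± 0.11 (adjusted p = 0.014) in LT against PBS. The call in LT against PBS was lost without PBS replicate 3, and the change in LPS against PBS passed the test under 9 of the alternative settings, among them the replicate number as a block (adjusted p = 0.045). Psme4, a large single-chain activator, had 3801, 4427 and 4036 on the LT arrays, 4076, 3985 and 3865 on the LPS arrays, and 3824 and 4049 on the PBS arrays, with overlapping groups and changes of 0.01 ± 0.10 (adjusted p = 0.91) in LPS against PBS and 0.05 ± 0.10 (adjusted p = 0.69) in LT against PBS.

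The assembly chaperones of the 20S core held the only falls past the test beside Psmd4, and 2 of the 3 calls between LT and LPS. Of the 3 tested, 2 fell and 1 rose in LPS against PBS, where 30.0% of all genes fell and 25.6% rose. In LT against PBS 1 fell and 1 rose, where 26.0% of all genes fell and 21.5% rose. Higher in LT than in LPS were 2 of the 3, and 6.12% of all genes. Psmg1 and Psmg2 form a dimer that guides the alpha ring together, and Psmg3 works in a second such dimer. Psmg1 had intensities of 683, 617 and 625 on the LT arrays, 515, 484 and 478 on the LPS arrays, and 609 and 599 on the PBS arrays. The LPS arrays were below all others, and the LT arrays all lay slightly above the PBS arrays. Its change was -0.34 ± 0.09 (1.26-fold lower, adjusted p = 0.0081) in LPS against PBS, 0.43 ± 0.08 (1.35-fold higher, adjusted p = 0.0089) in LT against LPS and 0.10 ± 0.09 (adjusted p = 0.43) in LT against PBS. The call in LPS against PBS was lost without PBS replicate 1 (adjusted p = 0.056), while that between LT and LPS was kept without any 1 array, with adjusted p up to 0.043.

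Psmg2 had intensities of 1219, 1009 and 1166 on the LT arrays, 878, 808 and 857 on the LPS arrays, and 1419.9 and 1388 on the PBS arrays. The 3 groups did not overlap, and the LT arrays lay between the LPS arrays below and the PBS arrays above. The change was -0.78 ± 0.10 (1.71-fold lower, adjusted p = 4.6e-05) in LPS against PBS, 0.44 ± 0.09 (1.36-fold higher, adjusted p = 0.013) in LT against LPS and -0.33 ± 0.10 (adjusted p = 0.019) in LT against PBS. Without LT replicate 1, the change between LT and LPS no longer passed the test (adjusted p = 0.059). The call in LT against PBS was lost without LT replicate 2, PBS replicate 1 or PBS replicate 3, and with the mean over the probes of a gene (adjusted p = 0.16). A further, dimmer probe of Psmg2 gave -0.42 ± 0.12 in LPS against PBS (adjusted p = 0.012), 0.38 ± 0.11 in LT against LPS (adjusted p = 0.058) and -0.04 ± 0.12 in LT against PBS (adjusted p = 0.82) in the limma fit over probes. Psmg3 rose instead, with 1042, 966 and 1017 on the LT arrays, 1179, 1019.8 and 1015 on the LPS arrays, and 831 and 787 on the PBS arrays, and changed by 0.43 ± 0.10 (adjusted p = 0.0028) in LPS against PBS, 0.34 ± 0.10 (adjusted p = 0.014) in LT against PBS and -0.09 ± 0.09 (adjusted p = 0.57) between LT and LPS. Its call in LT against PBS was lost without PBS replicate 3.

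The window before the start of Psmg1 is shown because this chaperone changed in both comparisons with the LPS group. It spans chr16:95990961-95991210 on the minus strand of GRCm38.p6 in RefSeq, and capitals mark the gamma-activated site (TTCNNNGAA).
Psmg1: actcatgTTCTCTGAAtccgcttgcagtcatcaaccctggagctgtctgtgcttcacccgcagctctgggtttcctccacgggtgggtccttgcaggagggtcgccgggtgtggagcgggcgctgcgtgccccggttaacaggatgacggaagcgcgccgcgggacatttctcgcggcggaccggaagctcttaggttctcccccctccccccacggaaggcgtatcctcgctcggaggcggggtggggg

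**Figure D4:**
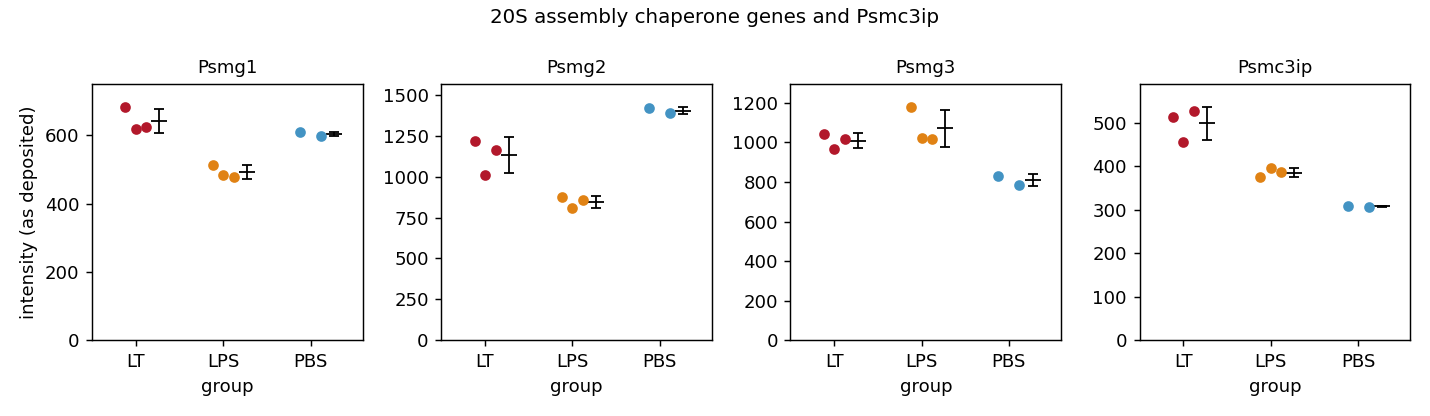
Deposited intensity (vertical axes, linear, starting at 0) of the genes called between LT and LPS and of Psmg3, by group, with LT left, LPS in the middle and PBS right; points are arrays, and bars with whiskers are the group mean and SD. The LPS arrays of Psmg1 (478 to 515) and Psmg2 (808 to 878) lie below the LT and PBS arrays, while Psmg3 is higher in both LPS-treated groups than in PBS.

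Psmc3ip, a cofactor of meiotic recombination that was found as a partner of Psmc3 and is no proteasome subunit, was the other gene called between LT and LPS. It had intensities of 513, 455 and 526 on the LT arrays, 374, 396 and 386 on the LPS arrays, and 308 and 307 on the PBS arrays. The 3 groups did not overlap, with LT highest and PBS lowest. Its change was 0.44 ± 0.09 (1.35-fold higher, adjusted p = 0.011) in LT against LPS, 0.41 ± 0.10 (1.32-fold higher, adjusted p = 0.0037) in LPS against PBS and 0.84 ± 0.10 (1.79-fold higher, adjusted p = 1.9e-05) in LT against PBS. Without LT replicate 1 the call between LT and LPS was lost (adjusted p = 0.0504). Without that array, 1 of the 42 proteasome genes was called between LT and LPS, and 390 of all genes in place of 982. Psme3ip1, a binding partner of Psme3, changed by 0.40 ± 0.08 (adjusted p = 0.0016) in LPS against PBS and 0.26 ± 0.08 (adjusted p = 0.022) in LT against PBS, the second of which was lost without either PBS array or LT replicate 3.

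Beside these changes between LT and LPS, markers of other cells moved too. Higher in LT than in LPS were 5 of 7 tested B cell markers, 5 of 5 erythroid markers and 3 of 4 dendritic cell markers, and lower were 6 of 8 macrophage markers. Of all genes tested, 6.12% were higher and 3.45% lower. None of 9 neutrophil markers and none of 5 T and NK cell markers was called between LT and LPS. The erythroid markers summed to 46224 to 58154 on the LT arrays, 26219 to 29337 on the LPS arrays and 80046 to 81559 on the PBS arrays, and the dendritic cell markers to 28315 to 35256 on the LT arrays, 21365 to 21760 on the LPS arrays and 81591 to 90335 on the PBS arrays. In LPS against PBS, all tested markers of B cells, T and NK cells, macrophages, erythroid cells and dendritic cells fell (7, 5, 8, 5 and 4), and of the neutrophil markers 3 rose and 2 fell. The shares of all genes tested there were 25.6% higher and 30.0% lower. Among defining markers, Pax5 of B cells, Cd8a and Ncr1 of T and NK cells, Cd5l of macrophages, Epb42 of erythroid cells and Xcr1 of dendritic cells were above background in no group. The part of these cells in the changes of the proteasome genes was not tested.

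Genes that work with the proteasome were divided between rises and falls. Of 32 such genes listed, 17 had a probe and 14 were tested, and in LPS against PBS 3 rose, 4 fell and the median log2 change was 0.01. These counts are near the shares of all genes tested, of which 25.6% rose and 30.0% fell. The rises were 1.61 ± 0.09 (adjusted p = 4.1e-08) for Zfand2a, a stress-induced protein that associates with proteasomes, 0.85 ± 0.10 (adjusted p = 2.5e-05) for Sem1, a small subunit of the lid, and 0.73 ± 0.10 (adjusted p = 8.0e-05) for Nploc4, a cofactor of Vcp. The falls were -0.85 ± 0.09 (adjusted p = 7.2e-06) for the proteasome-bound ubiquitin ligase Ube3c, -0.82 ± 0.09 (adjusted p = 1.1e-05) and -0.68 ± 0.12 (adjusted p = 4.7e-04) for the shuttle factors Ubqln1 and Ubqln4, and -0.53 ± 0.09 (adjusted p = 2.5e-04) for Vcp, the ATPase that extracts ubiquitinated proteins from complexes. Pomp, which brings the core beta subunits together, had 12052, 11925 and 11558 on the LT arrays, 10742, 10227 and 10852 on the LPS arrays, and 11383 and 11793 on the PBS arrays and changed by -0.13 ± 0.09 (adjusted p = 0.22). Against PBS, 4 rose and 4 fell in LT with a median of 0.03, where 21.5% of all genes tested rose and 26.0% fell. The fourth rise was Nfe2l2, a regulator of antioxidant genes, at 0.59 ± 0.21 (adjusted p = 0.038). Between LT and LPS, Vcp alone was called, at 0.27 ± 0.08 (adjusted p = 0.0495), where 9.58% of all genes were called in either direction.

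The genes of MHC class I antigen processing, which use the peptides of the proteasome, mostly rose after LPS. Of 14 listed, 11 were tested, and in LPS against PBS 7 went up and 2 fell, and their median log2 change was 0.78. Of all genes tested, 25.6% rose and 30.0% fell there. Tap1 and Tap2, the peptide transporter encoded beside Psmb8 and Psmb9, changed by 1.54 ± 0.10 (adjusted p = 1.2e-07) and 0.78 ± 0.10 (adjusted p = 4.6e-05). Tapbp, which bridges the transporter to class I molecules, changed by 2.25 ± 0.19 (adjusted p = 8.0e-07), and Nlrc5, the transactivator of class I genes, by 0.97 ± 0.11 (adjusted p = 9.5e-06). H2-K1 and H2-D1, class I heavy chains, changed by 1.27 ± 0.13 (adjusted p = 5.5e-06) and 1.30 ± 0.12 (adjusted p = 2.4e-06), and signal from other class I genes on these probes cannot be told apart from theirs. The falls were of the loading chaperones Calr, at -0.90 ± 0.23 (adjusted p = 0.0054), and Pdia3, at -0.54 ± 0.10 (adjusted p = 5.8e-04). In LT against PBS, 7 rose and 1 fell with a median of 0.63, where 21.5% of all genes tested rose and 26.0% fell. Between LT and LPS none was called, where 9.58% of all genes were. The median there was -0.03 and the lowest adjusted p 0.098, for Pdia3. Irf1, an interferon-induced transcription factor, had 25208, 26870.5 and 26108 on the LT arrays, 26755, 26389 and 26389 on the LPS arrays, and 27039.9 and 25723 on the PBS arrays and changed by 0.0075 ± 0.09 (adjusted p = 0.95) in LPS against PBS.

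Other probes of the same genes gave a further reading. For 13 of the tested proteasome genes, 15 other probes passed the background filter, and their change had the sign of the probe used for 12 in LT against LPS, for 14 in LPS against PBS and for 15 in LT against PBS. None was called in the opposite direction. Leaving out each array in turn, 19 of the 29 calls in LPS against PBS, 16 of the 31 in LT against PBS and 1 of the 3 in LT against LPS were kept every time. In LPS against PBS these included all 3 immunoproteasome subunits, Psmb1, Psmb3, Psmb5, Psmb6, Psmb7, Psma5, Psmc1, Psmd8, Psmd9, Psmd11, Psmd14, Psme2, Psmg2 and Psmg3. With no filter on dim probes, which brings all 16593 genes into the adjustment, Psmb2, Psmc4, Psmd2, Psmd4 and Psmd13 were no longer called in LPS against PBS, nor Psma2, Psmb9, Psmc2, Psmd13, Psme1 and Psme3ip1 in LT against PBS. Fitting only the arrays compared ended the calls of Psma2, Psmd13 and Psme1 in LT against PBS, and leaving out the background correction or using limma-trend that of Psmd2 in LPS against PBS. Leaving out PBS replicate 1 had the largest effect in LT against PBS, where 20 of the 42 proteasome genes were then called.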

How the data were processed

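RNA from 8 samples (LT 3, LPS 3, PBS 2) was measured on Illumina MouseRef-8 v2 arrays, with 550 ng of RNA amplified per sample per the labels. The deposited values are intensities on a linear scale, with quantiles equal between the arrays to within 0.0616%, so the authors had quantile-normalized them. The submitters' processing notes name GenomeStudio 2011.1 and R 2.15.0, and a background correction is not given in the sources used here. A second table (16 columns of signal and detection values) was not used, since no column of it can be matched to a title. Groups come from the titles; the description of PBS replicate 3 numbers it 2, and the title was followed.

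In R 4.3.3 with limma 3.58.1, intensities were corrected with normexp (offset 50), quantile-normalized and put on the log2 scale. The array signal has its mode at 148, and the upper 5% bound of a background mirrored around it is 169, which 13056 of 25697 probes (50.8%) exceeded on each array. Probes above it on at least 2 arrays were kept. Of all probes, 23978 carried 1 gene symbol. For each gene the kept probe with the highest mean was used. A linear model with group means was fitted over the 8 arrays (lmFit, eBayes, two-sided), with Benjamini-Hochberg adjustment over 10255 genes and a threshold of 0.05; this fit was tested on simulated data. The members, gene lists and named genes were chosen with earlier results of these data known. The rule for names takes Psmb5 to Psmb10 and Psme1 to Psme4 in every case, up to 3 members per class and comparison called with the largest change and without overlap of the arrays, directions of a class with 5 or fewer calls, up to 8 members called between LT and LPS, and the 4 largest changes of each related list. Genes named outside it, such as Psmd5, Pomp and Irf1, were chosen after their values were seen. Upstream sequences come from RefSeq (GRCm38.p6). Alternatives were other background, scaling, filter, probe and variance settings, fitting only the groups compared, a replicate block and leaving out each array. The replicate numbers were checked for pairing.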

Additional observations from a re-analysis of the deposited data

How the results depend on the processing

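Under the settings that keep all arrays, 3 to 4 proteasome genes were called between LT and LPS (3 in the fit reported), 24 to 33 between LPS and PBS (29) and 25 to 35 between LT and PBS (31). When each array was left out in turn, the counts ran from 1 to 3, from 20 to 30 and from 20 to 31, and those over all genes from 390 to 1123 between LT and LPS (982 in the fit reported), from 4539 to 5905 between LPS and PBS (5708) and from 3774 to 4890 between LT and PBS (4871). Lowest were LT replicate 1 for LT against LPS, with 390 genes, and PBS replicate 1 for proteasome genes in LT against PBS; 510 genes were called between LT and LPS without LPS replicate 1 and 524 without LPS replicate 3. Of 1386 values recomputed for 77 changes of single proteasome genes, 1270 kept direction and side of the threshold, 92 lost the call, 16 gained it and 8 changed sign. The sign changes were all in changes close to 0. Without single arrays, Psmb10 ran from -0.054 to 0.015, Psme1 from -0.0034 to 0.14 and Psme4 from -0.021 to 0.090 in LT against LPS, and Psme4 from -0.027 to 0.057 in LPS against PBS and from -0.0068 to 0.10 in LT against PBS. The difference of Psmb8 and Psmb5 ran from -0.0024 to 0.18 in LPS against PBS and from -0.063 to 0.10 in LT against PBS, and that of Psmb9 and Psmb6 from -0.076 to 0.17 in LPS against PBS. With the replicate block, 3, 29 and 29 proteasome genes were called in LT against LPS, LPS against PBS and LT against PBS. Psme4 changed there by -0.016 in LPS against PBS. The pair differences were not fitted with the block. They were taken between same-numbered arrays only, which leaves out arrays without a PBS array of that number. So taken, Psmb8 minus Psmb5 changed by -0.059 in LT against PBS and Psmb9 minus Psmb6 by -0.027 in LPS against PBS. Residuals of same-numbered arrays correlated from -0.19 to 0.30, and not every pair exceeded 0.1, so the numbers were not treated as pairs. The cause of these shifts was not tested. Signal over background limits Psmd6 and the genes below the threshold, and Psmd2, and Psmd9 on the PBS arrays, lay close above it.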
